A study of Mus musculus with 6 samples.

Results

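The Eph receptors, ephrins, Slits, Robos, netrins, draxin and netrin receptors are the classical contact and secreted cues that steer growing axons, and 40 of their genes were followed in the E14.5 mouse midbrain. The members were listed by name as known guidance genes, with earlier results of these data known, and all 40 were present among the 26852 genes of the deposited table. RNA came from whole dissected midbrains of embryos labelled C57Bl/6 (C57BL/6J in the methods). The 3 Lmx1b cKO libraries were made from Lmx1b-fl/fl; Pitx3-Cre embryos and the 3 control libraries from Lmx1b-wt/wt;Pitx3-Cre embryos, with 2 embryos pooled per library and 4 litters in all. Both groups therefore carry the Pitx3-Cre allele, which takes the place of a working Pitx3 allele. Cre is driven by Pitx3, a gene switched on in post-mitotic mesodiencephalic dopaminergic (mdDA) neurons, while the sequenced tissue also holds other cells. In bulk RNA of this kind, fewer cells of a type and less RNA per cell cannot be told apart.

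Ephs are receptor tyrosine kinases that bind ephrins on neighbouring cells, the A class mostly GPI-anchored ephrin-As and the B class mostly transmembrane ephrin-Bs, and both partners can signal. Slits are secreted by the floor plate and other midline tissue and repel axons that carry Robo receptors. Netrin-1, also made by the floor plate, attracts axons through Dcc and repels them through the Unc5 receptors, and mdDA axons leave the midbrain along paths on which such cues are known to act.

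The deposited table gives a mean normalized count per group, in which each library's reads were scaled by its size factor. The whole read counts behind these means were recovered for 26720 genes (99.5%), all 40 members included, and each library had between 25026646 and 30324258 recovered reads. The genotype of a recovered library is known but not which sample it is. Libraries of a genotype are therefore lettered a to c from the largest size factor to the smallest, and equal letters do not pair libraries. Values below are normalized counts per library, and means are given ± SD with n = 3 libraries of pooled embryos per group. Comparisons of levels between genes use normalized counts per kilobase (kb) of annotated exon. Fold changes are log2 values of cKO minus control from limma with voom weights, fitted on the 17045 genes whose mean reached 10 normalized counts. Beside the unadjusted limma p stands an exact permutation test of the libraries, which cannot go below 0.1 with 3 against 3 libraries and below 0.2 with 2 against 3.

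Lmx1b itself, the floxed gene, had 1257, 1401 and 1455 normalized counts in the cKO libraries against 1368, 1352 and 1474 in the controls. The groups overlapped and the log2 fold change was -0.03 (SE 0.074, limma p = 0.684, exact permutation p = 0.8). This count gives no check of the labels, so the groups are named here as labelled, and why Lmx1b was level was not tested. Among 13 mdDA markers, Aldh1a1 was higher and Ddc, Pitx3, En1 and En2 were lower at an unadjusted limma p under 0.05, each with an exact permutation p = 0.1. Of all genes tested, 1.16% were higher and 1.61% lower at this threshold, and 0 passed after Benjamini-Hochberg adjustment. By sign, 2 mdDA markers were positive and 11 negative, with a median log2 fold change of -0.156. The summed 10 bone and mesenchyme markers stood apart in cKO replicate a and above all cKO replicate c, at 2729, 926 and 14193 normalized counts in the cKO libraries against 910 to 1258 in the control libraries, and their part in any result was not tested. Of the 9 bone and mesenchyme markers tested, only Col3a1 passed the unadjusted threshold (limma p = 0.0361, exact permutation p = 0.1).

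The guidance genes as a whole were nearly level between the genotypes. Of the 40 members, 39 reached the minimum mean and were tested, and 18 had a positive and 21 a negative log2 fold change. Only Robo4, an endothelial Robo receptor, passed an unadjusted p of 0.05, which is 1 of 39 members against 2.78% of all genes tested in either direction and 1.16% in the higher direction. After Benjamini-Hochberg adjustment in limma 0 members passed, as did 0% of all genes, while limma-trend on log2 values also called 1 member at an unadjusted p of 0.05, again Robo4. The 3 cKO libraries lay above the 3 control libraries for 2 members, Robo4 and Efna2, and below them for 0 members. Such separation occurred in 7.59% of all genes tested, in 3.87% upwards and in 3.71% downwards, so the members' shares are near or under the background. Their median log2 fold change was -0.007, beside 0.0009 for all genes tested.

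**Figure D1:**
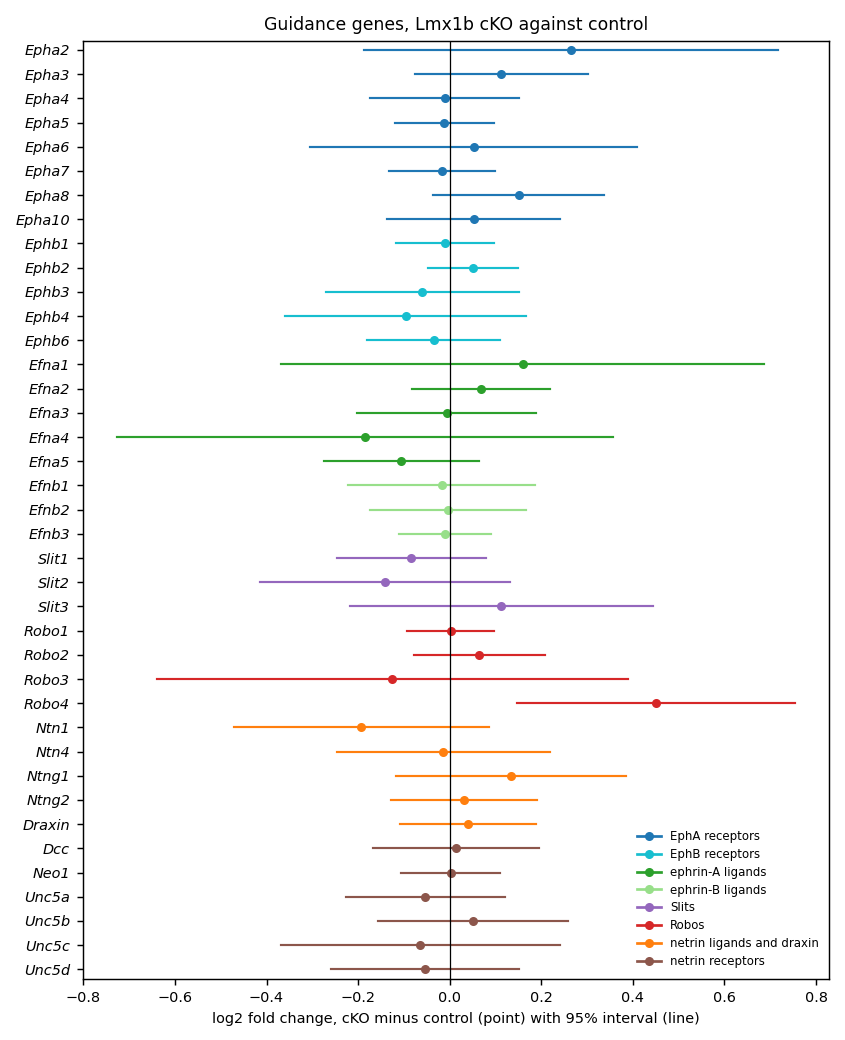
Log2 fold change of cKO minus control (x axis) for the 39 tested guidance genes (y axis), coloured by family. Points are limma estimates and lines their 95% intervals. The interval of Robo4 (0.148 to 0.755) is the only interval that does not include 0.

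The data limit how large a difference in whole-midbrain RNA could have been missed. For 34 of the 39 tested members the 95% interval of the fold change lay within 1.5-fold in either direction. A larger difference confined to mdDA neurons could lie within such an interval, since the RNA came from all cells of the dissection. The 5 members whose interval reached past 1.5-fold were Epha2, Efna1, Efna4, Robo3 and Robo4. Epha2, Efna1 and Efna4 are low in this tissue, Robo3 had a wide spread between libraries, and Robo4 had the largest log2 fold change (0.451, SE 0.14). The median size of the log2 fold change, regardless of sign, was 0.053 over the members and 0.068 over all genes tested. Among genes with a mean of at least 1000 normalized counts it was 0.052 for 28 members and 0.035 for 6802 genes.

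The levels of the guidance genes covered a wide range. Per kb of exon, Efnb3, a transmembrane ephrin-B, was the most abundant member at 2644 normalized counts per kb, followed by Ntn1 at 1383, the netrin receptor Neo1 at 1139, Ephb1 at 1041 and Ephb2 at 992. The next in order, Draxin at 782, Slit1 at 714 and Robo1 at 689, lay closer together. At the low end were Epha6 at 45.9, Efna1 at 44.9, Slit3 at 41.3, Robo4 at 36.8, Epha2 at 22.9 and Epha1 at 0.825 normalized counts per kb. The most abundant member of each of the 8 families reached at least 474 normalized counts per kb.

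**Figure D2:**
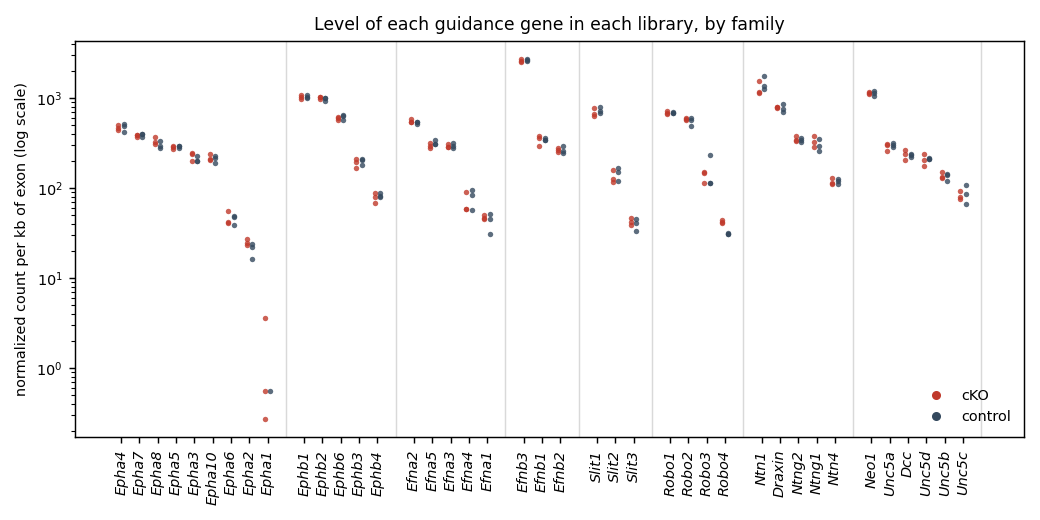
Normalized count per kb of exon (y axis, log scale) of each guidance gene (x axis, grouped by family and ordered by level) in each of the 6 libraries, with cKO points in red and control points in blue. Levels run from Efnb3 at 2644 to Epha1 at 0.825 normalized counts per kb over all libraries. The 2 control libraries without an Epha1 read are at 0 and cannot be drawn on this axis.

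Among the 9 EphA receptors, Epha4 and Epha7 were the most abundant per kb, at 474 and 386 normalized counts per kb. Epha4, a receptor that binds ephrins of both classes, had 3786, 4046 and 3586 normalized counts in the cKO libraries against 4179, 3909.7 and 3411 in the controls. Epha7 had 3835, 3844 and 3701 normalized counts in the cKO libraries against 3935, 3959.7 and 3617 in the controls. The groups of both genes overlapped, and their log2 fold changes of -0.011 (SE 0.074) for Epha4 and -0.017 (SE 0.053) for Epha7 were smaller than their standard errors. Epha5, which binds ephrin-As and is spread along axons in the developing brain, was as level, with a log2 fold change of -0.012 (SE 0.049) around a mean of 4803 normalized counts.

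Epha8 and Epha3 were the EphA receptors nearest to a difference among those above 1000 normalized counts. Epha8 had 1733, 1469 and 1525 normalized counts in the cKO libraries against 1322, 1572 and 1379 in the controls. Control replicate b lay among the cKO values, the log2 fold change was 0.15 (SE 0.085, limma p = 0.103, exact permutation p = 0.3), and without that library it was 0.23 (limma p = 0.0262, exact permutation p = 0.2). Without cKO replicate a it was 0.076 (limma p = 0.396, exact permutation p = 0.6) and without control replicate a 0.095 (limma p = 0.32, exact permutation p = 0.6). Epha3 had 1733, 2142 and 2092 normalized counts in the cKO libraries against 1974, 1749 and 1748 in the controls. Here cKO replicate a was the lowest of all 6 libraries, the log2 fold change was 0.11 (SE 0.087, limma p = 0.217, exact permutation p = 0.4), and without that library it was 0.21 (limma p = 0.0142, exact permutation p = 0.2). Without cKO replicate b it was 0.056 (limma p = 0.566, exact permutation p = 0.8), the lowest of the 6 such fits, and without cKO replicate c 0.073 (limma p = 0.468, exact permutation p = 0.8).

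The remaining EphA receptors did not pass the test, with positive log2 fold changes in all 3 that were tested. Epha10, whose kinase domain lacks activity, had a log2 fold change of 0.052 (SE 0.086), and Epha6 had one of 0.052 (SE 0.16) around only 243 normalized counts. Epha2, best known from epithelia and vessels, ranged from 76.7 to 126 normalized counts over the libraries, with a mean of 117 ± 9.21 in the cKO and 97.6 ± 18.9 in the control libraries. Its groups overlapped, and its fold of 1.2 had a 95% interval of 0.878 to 1.64, the interval of a low gene. The log2 fold change of 0.26 became 0.118 without control replicate c and 0.376 without control replicate b.

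Epha1, an epithelial Eph receptor, was close to absent and was not tested. It had 15, 1 and 2 reads in the cKO libraries and 0, 0 and 2 reads in the control libraries, so that all but 3 of the 18 cKO reads lay in cKO replicate a. The pooled ratio of the libraries was 9.49, with an exact 95% interval of 2.27 to 84.3 that covers counting error only and not the spread between libraries. Its exons overlap those of Zyx on the opposite strand over 236 bp, and whether reads were counted by strand is not given in the sources used here.

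None of the 5 EphB receptors passed the test. Ephb1 had 7295, 6914 and 7573 normalized counts in the cKO libraries against 7083, 7306 and 7554 in the controls. Ephb2 had 12851, 12274 and 13023 normalized counts in the cKO libraries against 11663, 12583 and 12616 in the controls. The groups of Ephb1 were intermixed, while for Ephb2 only cKO replicate b lay within the control range. The log2 fold changes were -0.01 (SE 0.049) for Ephb1 and 0.051 (SE 0.045) for Ephb2, and 95% intervals of the fold of 0.922 to 1.07 and 0.968 to 1.11. Without control replicate a, the lowest library, Ephb2 was at 0.013. Ephb3 and Ephb4, the latter the venous partner of ephrin-B2, had log2 fold changes of -0.06 (SE 0.096) and -0.096 (SE 0.12), and Ephb6, a receptor without kinase activity, one of -0.035 (SE 0.066). Over the 13 tested Eph receptors the median log2 fold change was -0.01, with 6 positive and 7 negative values and 0 with an unadjusted p under 0.05. Summed per kb, the Eph receptors held 4909.8 ± 78.9 normalized counts per kb in the cKO and 4857 ± 123 in the control libraries.

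The 8 ephrins, the ligands of these receptors, did not pass the test either. Of the ephrin-As, Efna2 and Efna5, cues that map axons along the tectum, were the most abundant per kb, at 548 and 311 normalized counts per kb. Efna2 had 1165, 1264 and 1160.3 normalized counts in the cKO libraries against 1157, 1151 and 1106 in the controls. The groups did not overlap, but the lowest cKO library and the highest control library were almost equal. The means were 1196 ± 58.5 and 1138 ± 27.9, the fold was 1.05 (95% interval 0.944 to 1.16), the limma p was 0.343, and an exact permutation test gave 0.1, the smallest value that 3 against 3 libraries allow. The log2 fold change of 0.069 became 0.029 without cKO replicate b. Efna5 had 1297, 1137 and 1195 normalized counts in the cKO libraries against 1396, 1253 and 1255 in the controls. Its groups overlapped through cKO replicate a, and its log2 fold change was -0.11 (SE 0.077, limma p = 0.195, exact permutation p = 0.3), with -0.051 without control replicate a and -0.161 without cKO replicate a.

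Efna1, Efna3 and Efna4 lie close together on chromosome 3, between 89271733 and 89338028 (GRCm38), and all are transcribed from the minus strand. Efna3 had a log2 fold change of -0.007 (SE 0.089), while Efna1 (0.16, SE 0.24) and Efna4 (-0.19, SE 0.25) had means of 82.1 and 118 normalized counts and wide intervals. Efna4 was spread alike in both groups, between 94.2 and 144 in the cKO and between 91.3 and 151 normalized counts in the control libraries. Without control replicate b, Efna4 had a log2 fold change of -0.403, against -0.017 without control replicate a, and Efna1 had one of -0.035 without control replicate c. No member of this cluster differed beyond the spread between its libraries.

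Efnb3, a midline ephrin-B that keeps corticospinal axons from recrossing, had 8712, 8299.8 and 8140.4 normalized counts in the cKO libraries against 8212, 8745 and 8386 in the controls. Efnb1 had 1019, 1317 and 1261 normalized counts in the cKO libraries against 1234, 1185 and 1177 in the controls. Both overlapped, and the cKO libraries of Efnb1 were the more spread, with 1199 ± 158 against 1199 ± 30.8. The log2 fold changes were -0.01 (SE 0.046) for Efnb3, -0.017 (SE 0.093) for Efnb1 and -0.004 (SE 0.078) for Efnb2, the arterial ephrin-B. The median over the 8 ephrins was -0.008, with 2 positive and 6 negative values and 0 with an unadjusted p under 0.05.

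Slit1 and Slit2, the more abundant Slits at 714 and 141 normalized counts per kb, were lower in the cKO mean by less than the spread between libraries. Slit1 had 3963, 3792 and 4556 normalized counts in the cKO libraries against 4098, 4219 and 4733 in the controls. Slit2 had 2955, 3183 and 4065 normalized counts in the cKO libraries against 3865, 3085 and 4292 in the controls. In each group 1 library, replicate c, was the highest for both genes, and the groups overlapped. The log2 fold change of Slit1 was -0.084 (SE 0.074, limma p = 0.281, exact permutation p = 0.5), and that of Slit2 was -0.142 (SE 0.12, limma p = 0.28, exact permutation p = 0.6). Without cKO replicate c, Slit1 was at -0.16 (limma p = 0.0457, exact permutation p = 0.2) and Slit2 at -0.275 (limma p = 0.0368, exact permutation p = 0.4). Without control replicate b, Slit2 was at -0.275 (limma p = 0.0299, exact permutation p = 0.4). Other libraries pulled the opposite way, and without control replicate c Slit1 was at -0.024 (limma p = 0.764, exact permutation p = 1) and Slit2 at -0.042 (limma p = 0.756, exact permutation p = 1). Slit1 was at -0.031 without cKO replicate b and Slit2 at -0.044 without cKO replicate a. Slit3, the lowest Slit, had 239, 256 and 285 normalized counts in the cKO libraries against 246, 202 and 278 in the controls, with a log2 fold change of 0.11 (SE 0.15).

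Ntn1 followed the same libraries. Netrin-1 had 7103, 7358 and 9821 normalized counts in the cKO libraries against 8048, 8566 and 11185 in the controls. Replicate c was again the highest of each group, and its cKO value lay above control replicates a and b. The group means of 8094 ± 1501 and 9266 ± 1682 gave a log2 fold change of -0.19 (SE 0.13, limma p = 0.157, exact permutation p = 0.5). Without cKO replicate c it was -0.34 (limma p = 0.0128, exact permutation p = 0.2) and without control replicate a it was -0.29 (limma p = 0.0458, exact permutation p = 0.4). Without control replicate c it was -0.055 (limma p = 0.642, exact permutation p = 1), and without cKO replicate a it was -0.104 (limma p = 0.457, exact permutation p = 0.8). The sum of the 6 floor plate markers, of which Foxa2 and Lmx1a also mark mdDA neurons, varied over the libraries in a like way. It was 10608, 10411 and 15097 normalized counts in the cKO and 12083, 11221 and 16022 in the control libraries. Spon1 and Sulf1 made up most of this sum. Lmx1a was highest among the controls in replicate a (1218, against 1171 in replicate c), while the other markers were highest in replicate c of both groups. All 6 floor plate markers had a negative log2 fold change. Corin was the 1 marker with an unadjusted limma p under 0.05 (-0.65, SE 0.28, p = 0.0426, exact permutation p = 0.3), beside 1.61% of all genes in that direction. No floor plate marker was at 0 in all libraries, and how much floor plate each dissection held, and its part in the values of Ntn1 and the Slits, was not tested.

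**Figure D3:**
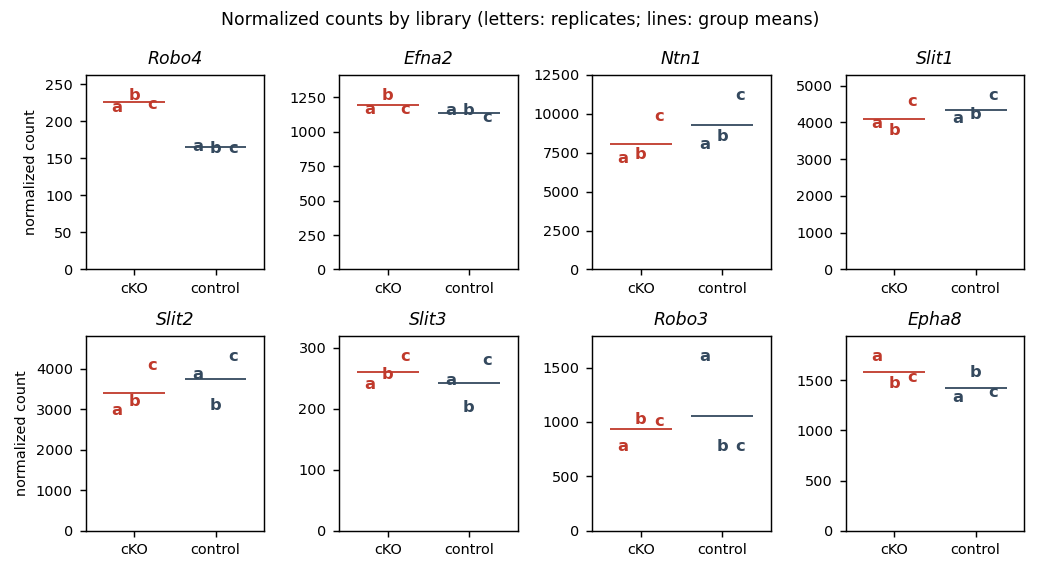
Normalized count (y axis, from 0) of 8 guidance genes in each library, by genotype. Letters are the replicates and lines the group means. The 3 cKO libraries of Robo4 (219 to 235) lie above the 3 control libraries (163 to 166), while Ntn1 and the Slits peak in replicate c of both groups and Robo3 has a single high library, control replicate a at 1599.7.

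Of the Robos, Robo1 and Robo2 are the main axonal Slit receptors and were the most abundant, at 689 and 570.3 normalized counts per kb. Robo1 had 11218, 10991 and 11948 normalized counts in the cKO libraries against 11168, 11559 and 11350.4 in the controls. Robo2 had 10109, 9684 and 9885 normalized counts in the cKO libraries against 9759.9, 10297 and 8381 in the controls. Both overlapped, with a log2 fold change of 0.002 (SE 0.043) for Robo1 and 0.064 (SE 0.065) for Robo2, and a 95% interval of the Robo1 fold of 0.938 to 1.07. The direction of Robo1 turned to -0.005 when libraries were scaled by their total reads.

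Among the 39 tested members, Robo4 had the largest log2 fold change. Its product is expressed by endothelial cells, where it steadies vessels, and it lacks several of the extracellular domains of the neuronal Robos. Robo4 had 219, 235 and 223 normalized counts in the cKO libraries against 166, 163 and 164 in the controls. All cKO libraries lay above all control libraries (226 ± 8 against 165 ± 1.56). At 234, 222 and 206 reads in the cKO and 188, 170 and 152 in the control libraries, both SDs lie below counting error alone. They are therefore no measure of the spread between libraries. The log2 fold change was 0.45 (SE 0.14, unadjusted limma p = 0.00723), and an exact permutation test gave 0.1, the smallest value that it allows here. This is a fold of 1.37 with a 95% interval of 1.11 to 1.69. The Benjamini-Hochberg adjusted p over all genes in limma was 1. With each library left out, the unadjusted limma p stayed between 0.0125 and 0.0222 and the log2 fold change between 0.42 and 0.47. The exact permutation test then gave its smallest value of 0.2, which was fixed in advance because the groups do not overlap.

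No endothelial marker passed the test beside Robo4. Of 10 markers, among them Pecam1, Cdh5, Kdr and Cldn5, 0 had an unadjusted limma p under 0.05. Their log2 fold changes ran from -0.13 for Emcn to 0.16 for Ramp2, and their sums from 6903 to 7070 normalized counts in the cKO and from 6457 to 7105 in the control libraries. Set against this sum, Robo4 stood at 3.18, 3.32 and 3.2 normalized counts per 100 endothelial counts in the cKO libraries and at 2.58, 2.35 and 2.31 in the control libraries. The means on this scale were 3.23 ± 0.0752 and 2.41 ± 0.142, a ratio of 1.34, which is a description and not a further test, since Robo4 was singled out by its difference and the marker sums were already known. The part of endothelial content in the Robo4 difference was not tested. Among 6 erythroid markers Hba-a1 and Hbb-bs were higher in the cKO at an unadjusted limma p under 0.05 but with overlapping groups (exact permutation p = 0.3 for each), against 1.16% of all genes, while Hbb-bt was at -0.038, with marker sums of 10713, 11504 and 13173 in the cKO and 8450, 10099 and 12560 normalized counts in the control libraries. Whether blood left in the tissue plays a part in the Robo4 difference was not tested.

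**Figure D4:**
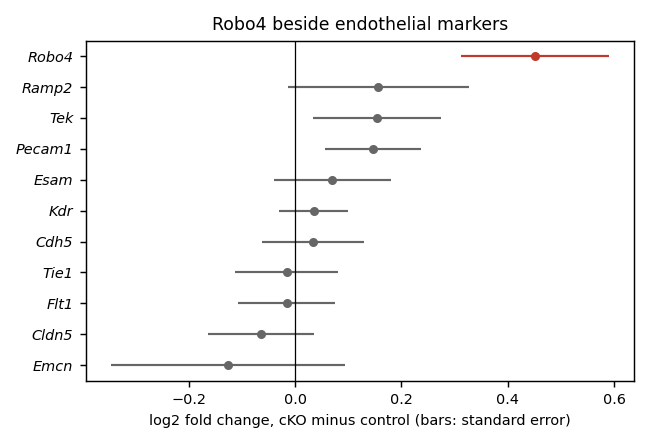
Log2 fold change of cKO minus control (x axis) of Robo4 and 10 endothelial marker genes (y axis), with points for the limma estimates and bars for the standard errors. Robo4 is at 0.45, and the 10 markers lie between -0.13 and 0.16.

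Robo4 shares its locus with Robo3, the receptor that lets commissural axons cross the midline. Robo4 lies at chr9:37401897-37415115 on the plus strand and Robo3 at chr9:37415669-37433246 on the minus strand (GRCm38), so that their 3′ ends face each other with 553 bp between them and their promoters lie at the outer ends. Robo3 had 779, 1026 and 1002 normalized counts in the cKO libraries against 1599.7, 778 and 779 in the controls. Control replicate a was far above all other libraries, while control replicates b and c were almost equal to the lowest cKO library. The log2 fold change of -0.13 had a standard error of 0.23 and a 95% interval of -0.64 to 0.39, and without control replicate a it was 0.25 (limma p = 0.0707, exact permutation p = 0.2). Without control replicate b it was -0.313 (limma p = 0.218, exact permutation p = 0.8).

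The promoters of both genes are shown because Robo4 alone passed the unadjusted threshold and Robo3 is its neighbour, from 250 bases before to 50 bases after the RefSeq start (GRCm38.p6), each 5′ to 3′ on the strand of its gene. Lmx1b is a LIM homeodomain factor, and capitals mark TAATTA, a homeodomain core motif that reads the same on both strands. Robo4 is at chr9:37401722-37402021 on the plus strand and Robo3 at chr9:37433126-37433425 on the minus strand.
Robo4: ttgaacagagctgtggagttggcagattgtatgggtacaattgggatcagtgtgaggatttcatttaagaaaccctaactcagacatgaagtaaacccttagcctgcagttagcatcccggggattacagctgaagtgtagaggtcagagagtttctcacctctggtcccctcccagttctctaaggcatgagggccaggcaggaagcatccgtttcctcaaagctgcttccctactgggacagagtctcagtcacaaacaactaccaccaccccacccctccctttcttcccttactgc
Robo3: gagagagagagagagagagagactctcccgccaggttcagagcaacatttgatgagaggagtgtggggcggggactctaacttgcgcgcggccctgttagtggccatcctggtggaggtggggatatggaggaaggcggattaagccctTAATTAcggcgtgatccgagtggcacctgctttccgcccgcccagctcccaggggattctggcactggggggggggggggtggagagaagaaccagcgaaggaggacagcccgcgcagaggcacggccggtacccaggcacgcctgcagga
The Robo4 window holds 0 matches and the Robo3 window 1 match. Promoters were found in the RefSeq table for 35 of the 40 members, and TAATTA occurred in 3 of them (8.57%), those of Efna1, Epha5 and Robo3. Of all genes with a RefSeq promoter, 6.12% had the motif in a promoter, as did 5.29% of 32851 promoters. Such a match is a description of letters and not of binding.

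Over the 7 Slits and Robos the median log2 fold change was 0.002, with 4 positive and 3 negative values. Summed per kb, the group held 2321 ± 129.6 normalized counts per kb in the cKO and 2353 ± 42.9 in the control libraries. At 36.8 normalized counts per kb, Robo4 is a small part of this sum.

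Beside Ntn1, the second most abundant netrin-class ligand per kb was Draxin, a secreted repellent that binds Dcc, at 782 normalized counts per kb. Draxin had 4014, 4202 and 4151 normalized counts in the cKO libraries against 4435, 3954 and 3637 in the controls. The cKO values fell inside the control range, with a log2 fold change of 0.041 (SE 0.068). Ntng1, a membrane-anchored netrin-G, had 3096, 2659.5 and 2341 normalized counts in the cKO libraries against 2121, 2887 and 2420.4 in the controls. The groups overlapped, the log2 fold change was 0.13 (SE 0.11, limma p = 0.267, exact permutation p = 0.6), and without control replicate b it was 0.25 (limma p = 0.0376, exact permutation p = 0.4). Without control replicate a it was 0.022 (limma p = 0.843, exact permutation p = 1) and without cKO replicate a 0.026 (limma p = 0.823, exact permutation p = 1). Ntng2 (0.031, SE 0.073) and Ntn4, a netrin of basement membranes (-0.014, SE 0.11), were level, although 558 bp of the Ntng2 exons are shared with another gene on its own strand.

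Of the netrin receptors, Neo1 and Unc5a were the most abundant per kb, at 1139 and 294 normalized counts per kb. Neo1, the Dcc relative neogenin, had 10143, 9759 and 9874 normalized counts in the cKO libraries against 9313, 10499.5 and 9997 in the controls. Unc5a had 1244, 1277 and 1086 normalized counts in the cKO libraries against 1187, 1256 and 1308 in the controls. Both overlapped, with log2 fold changes of 0.002 (SE 0.049) for Neo1, whose sign turned under scaling by total reads and in limma-trend, and -0.053 (SE 0.079) for Unc5a. Dcc, the receptor for attraction to netrin-1, had 2689.8, 3178 and 3479.8 normalized counts in the cKO libraries against 3175, 2929 and 3084 in the controls. The cKO libraries enclosed the control libraries, and the fold of 1.01 had a 95% interval of 0.890 to 1.14.

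Unc5b, an Unc5 receptor also found on vessels, had a log2 fold change of 0.051 (SE 0.095), and Unc5c had one of -0.064 (SE 0.14) with control libraries spread from 1289.6 to 2058 normalized counts. Unc5d had a log2 fold change of -0.054 (SE 0.094), and without cKO replicate a, its highest library at 2214 normalized counts, one of -0.175 (limma p = 0.0421, exact permutation p = 0.2). Without cKO replicate b, its lowest library, the value was 0.057 (limma p = 0.482, exact permutation p = 0.8). The 11 netrins, draxin and receptors had a median log2 fold change of 0.002, with 6 positive and 5 negative values, and all 11 intervals lay within 1.5-fold. Their 6 receptors summed to 2093 ± 23.3 normalized counts per kb in the cKO and 2108 ± 68.9 in the control libraries.

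Other genes of these pathways, inside the cell and at its surface, were counted as a list. Of 57 listed genes, such as the GTPase regulators of the srGAP and Vav families, the Nck adaptors and the surface proteins Rgma and Dscam, all but Maged1, Ntn3 and Ntn5 were tested (54 genes), and 0 of these had an unadjusted limma p under 0.05, beside 2.78% of all genes. By sign, 30 were positive and 24 negative, and the median log2 fold change was 0.008. By system, 8 of 15 Eph and ephrin genes, 10 of 16 Slit and Robo genes and 12 of 23 tested netrin genes had a positive value. The lowest value, -0.63 (SE 0.61), belonged to Adora2b, which ranged from 10.3 to 47.1 normalized counts over the libraries, and the lowest p in the list was 0.125. The highest log2 fold change in the list was 0.097.

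Markers of other cell types that the dissections could hold were counted in the same fit. Of 6 serotonergic markers, 4 were lower in the cKO at an unadjusted limma p under 0.05 (Fev, Slc6a4, Tph2 and Slc22a3), as were 3 of 7 radial glia markers (Slc1a3, Fabp7 and Hes5) and 0 of 4 microglia markers, beside 1.61% of all genes in that direction. On the log2 scale, the radial glia markers Pax6 and Sox2 were at 0.243 and 0.007. Gata2 and Gata3, also on the serotonergic list, were at 0.036 and 0.003. They had higher counts than the other 4 (Gata3 2315 to 2929, Fev 28.1 to 98.3), and whether they follow serotonergic cells here was not tested. In exact permutation tests Slc6a4, Slc22a3 and Fabp7 reached the smallest value of 0.1, while Slc1a3 and Hes5 were at 0.2 and Fev and Tph2 at 0.3. Radial glia carry many Eph receptors and ephrins, and their marker sums were 35186, 41757 and 40702 normalized counts in the cKO and 44587, 40203 and 41349 in the control libraries. Their part in the values of the guidance genes was not tested.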

How the data were processed

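RNA-seq libraries from E14.5 midbrains were made by the authors from pooled embryos, 3 per genotype. The submitters' processing notes name TopHat 1.0.14, Bowtie2 2.1.0, HTSeq 0.6.1p1, DESeq 1.10.1 and the build GRCm38.p4, while the methods name DESeq2. Strand use in counting is not given in the sources used here. The authors deposited a signal per gene, the mean over libraries of read counts divided by a size factor, overall and per genotype. The deposited ratio, log2 ratio, p-value and adjusted p-value columns hold the authors' own comparison and were not used. Of the mean counts, 31.8% lie on 3 lines that name no gene and were left out.

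The 3 whole read counts behind each group mean were recovered by searching for the single set of whole numbers that, divided by the size factors, gives the printed mean to 15 digits. Size factors were 1.067, 0.946 and 0.924 for the cKO and 1.13, 1.041 and 0.926 for the control libraries. Means above 20000 were not searched (132 genes), and the recovered genes hold 84.2% of the normalized counts. Because counts as deposited are needed for count tools, the recovered reads were tested with limma 3.58.1 (R 4.3.3, voom, prior count 0.5, no covariate, Benjamini-Hochberg over 17045 genes with a mean of at least 10). Both steps were first tested on simulated data. Single members were compared by a two-sided exact permutation test, which cannot go below 0.1. Exon lengths and positions came from GENCODE M21 on GRCm38. Exons of 10 members overlap those of another gene.

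Described per library were members with an unadjusted p under 0.05, members whose groups did not overlap and the 2 members of each of 8 families with the highest level per kb. Epha1, Epha3, Epha8, Slit3, Robo3, Ntng1 and Dcc were added after their values were seen. The members, marker lists and pathway lists were chosen with earlier results of these data known. The labels do not say that libraries of a group are from separate litters, so p-values measure the spread between these libraries. Alternatives were minimum means of 100 and of none, limma-trend with pseudocounts of 1 and 10, scaling by total reads, each library left out and, added after seeing the data, a block over each possible matching of cKO and control libraries. Recovery and permutation tests ran in Python 3.11.15 (numba 0.67.0, scipy 1.17.1, numpy 2.4.6), with tables in pandas 2.3.3 and plots in matplotlib 3.10.9.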

Additional observations from a re-analysis of the deposited data

How the results depend on the processing

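The adjusted count of members was 0 under all alternatives run, and without a replicate block the adjusted count over all genes was 0 except for 4 genes without control replicate a. At an unadjusted p under 0.05, Robo4 was called under every alternative run. The count of 1 member became 2 without a minimum mean, where Epha1 was added, and without each library in turn it ran from 1 to 4. It was 3 without cKO replicate a (Epha3, Robo4 and Unc5d), beside 2.83% of all genes in that fit. Without cKO replicate c it was 4 (Ntn1, Robo4, Slit1 and Slit2), beside 3.44%. Without control replicate a it was 2 (Ntn1 and Robo4), beside 3.81%. Without control replicate b it was 4 (Epha8, Ntng1, Robo4 and Slit2), beside 3.48%. Over all genes tested, the number with an unadjusted p under 0.05 was 473 (2.78%). It ran from 309 (2.41%) with a minimum mean of 100 to 975 (3.65%) without a minimum. The median of the Eph receptors, -0.01, became 0.034 as a mean over members and ran from -0.027 to 0.031 with each library left out, while the other 3 systems moved by less than their spread between libraries. Of 428 fold changes of single members under the alternatives, 363 kept their direction and their side of the unadjusted threshold.

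Directions of near-zero members turned: Efnb2 to 0.001 in limma-trend with either pseudocount, Robo1 to -0.005 under scaling by total reads, and Neo1 to -7.1e-05 and -7.2e-05 in limma-trend with pseudocounts of 1 and 10 and to -0.005 under scaling by total reads. With a library left out, 27 members changed sign in at least 1 fit, none with a log2 fold change above 0.16 in size. Without each library in turn, their log2 fold changes ran as follows, for Epha4 from -0.089 to 0.055, Epha5 from -0.04 to 0.015, Epha6 from -0.104 to 0.138, Epha7 from -0.057 to 0.005, Epha10 from -0.027 to 0.116, Ephb1 from -0.04 to 0.024, Ephb3 from -0.141 to 0.043, Ephb4 from -0.174 to 0.006, Ephb6 from -0.093 to 0.004, Efna1 from -0.035 to 0.312, Efna3 from -0.058 to 0.047, Efnb1 from -0.09 to 0.103, Efnb2 from -0.07 to 0.081, Efnb3 from -0.039 to 0.016, Slit3 from -0.01 to 0.207, Robo1 from -0.032 to 0.027, Robo2 from -0.018 to 0.125, Robo3 from -0.313 to 0.246, Ntn4 from -0.074 to 0.034, Ntng2 from -0.02 to 0.068, Draxin from -0.025 to 0.118, Dcc from -0.069 to 0.119, Neo1 from -0.046 to 0.043, Unc5a from -0.096 to 0.016, Unc5b from -0.031 to 0.099, Unc5c from -0.223 to 0.11 and Unc5d from -0.175 to 0.057. The cause was not tested. The deposited headers number the libraries 1 to 3 in each genotype but give only their mean, so the pairing of the recovered libraries is not known. With a replicate block over each of the 6 possible matchings, chosen after seeing the data, Robo4 was called in all 6 and the adjusted count of members was 0 in all 6. The unadjusted count of members was 1 in 3 matchings, where 348, 458 and 460 of the 17045 genes passed the same threshold. It was 2 (Ntn1 added), 3 (Epha8 and Ntng1 added) and 4 (Epha8, Ntn1 and Slit2 added) in the others. There 382, 687 and 697 genes passed, in that order. The adjusted count over all genes ran from 0 to 4. For the low genes Epha2, Efna1 and Efna4 the 95% intervals reach past 1.5-fold, so differences of that size in whole-midbrain RNA are not excluded there.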
